A study of Mus musculus with 9 samples.

Results

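The 10 genes of the NRF2 and haem-iron response were followed through 9 RNA-seq libraries of the mouse mammary tumour line D2.0R. They were chosen by name, as Nfe2l2, Hmox1, Nqo1, Gclm, Gclc, Txnrd1, Srxn1, Fth1, Ftl1 and Slc40a1, and all 10 were found, each on 1 row of a table of 55492 rows. All 10 passed the filter on low counts and are among the 12813 genes tested. The line was grown with 10% serum, loaded with the dye CellTrace Far Red (CTFR), which each division dilutes, kept for 1 week in 2% serum and sorted into CTFR-positive (quiescent) and CTFR-negative (proliferative) cells. No genotype, allele or drug is named, and all samples share this culture history in the labels. Samples of 3 kinds are named in the labels (bulk cells and both sorted fractions), but all 9 samples carry the same description. No library can therefore be assigned to a kind, no sorted fractions are compared, and libraries go by their title numbers, 1 to 9. Title numbers are not conditions: the values are laid out in runs of 3 (libraries 1 to 3, 4 to 6 and 7 to 9) and by position within a run only to describe them.

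NRF2, the protein of Nfe2l2, is a transcription factor that is held by KEAP1 and broken down in unstressed cells, and that enters the nucleus after oxidants or electrophiles modify KEAP1. With small MAF proteins it binds antioxidant response elements near genes for glutathione synthesis, thioredoxin reduction, quinone reduction, haem breakdown and iron storage. BACH1 represses the same elements until it binds haem. Haem oxygenase splits haem and frees its iron, ferritin stores iron and ferroportin exports it. In tumour cells the pathway is known for protection against oxidative stress and for ties to iron-dependent cell death. Ferritin and ferroportin are also controlled after transcription: iron regulatory proteins bind a hairpin, the iron-responsive element, in the 5′ untranslated region of their mRNAs and block translation when iron is scarce, so that mRNA levels alone do not give the protein levels.

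That hairpin is shown first because it sets 3 of the members apart from the rest. A search of GENCODE M21 5′ untranslated regions (GRCm38) for a bulged C, 5 bases, the loop CAGTGN and 5 bases that pair with the first 5 (G-T pairs allowed, transcript strand only) found it in 31 of 20916 genes (0.148%). Among the members it was found in Fth1, Ftl1 and Slc40a1. The sites, 30 bases each, are given 5′ to 3′ on the transcript strand with the loop in capitals, from chr19:9982732-9982761 (plus strand), chr7:45459778-45459807 (minus strand) and chr1:45925464-45925493 (minus strand).
Fth1: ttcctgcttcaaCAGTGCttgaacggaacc
Ftl1: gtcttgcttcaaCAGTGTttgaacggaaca
Slc40a1: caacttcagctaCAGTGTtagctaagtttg
Their mRNA levels, the layer measured here, are given with the other members below.

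Promoter windows, from 250 bases before to 50 after the transcript start, came from RefSeq on GRCm38.p6. They were matched for 7 members (10 windows), and none was matched for Hmox1, Gclc or Slc40a1. The core of the antioxidant response element, TGACNNNGC, was searched on both strands. It was present in 4063 of 32817 windows of this length (12.4%) and in 4 of the 10 member windows, those of Nfe2l2, Gclm, Txnrd1 (1 of its 3 windows) and Srxn1, where the match lies after the start and is not printed. The other 3 matches are shown because these genes share the order over the libraries described below. They are written on the gene's strand with the match in capitals, from chr2:75704875-75704913, chr3:122245403-122245451 and chr10:82859094-82859142, and the Gclm and Txnrd1 matches are on the opposite strand.
Nfe2l2: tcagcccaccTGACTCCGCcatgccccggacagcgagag
Gclm: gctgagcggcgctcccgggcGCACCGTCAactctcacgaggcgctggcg
Txnrd1: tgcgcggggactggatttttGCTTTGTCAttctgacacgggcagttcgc
The capitals begin at base -240 (Nfe2l2), base -134 (Gclm) and base -92 (Txnrd1) from the start. A match describes the letters of the window and is not evidence of binding. Match and order over the libraries did not go together. Fth1 and Ftl1 share that order with no match in their windows, and Srxn1 has a match without that order.

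The library totals ran from 18732737 to 41243036 estimated counts, and levels are given as CPM (read counts relative to library size) scaled with TMM factors. Replicates cannot be identified, so the intervals cover counting error only. Dispersion of the 9 counts of a gene was tested against counting noise with a chi-square test, and p-values were adjusted by Benjamini-Hochberg over all 12813 genes. Variable genes are those with an adjusted p under 0.05 and at least 2-fold between the extreme libraries. All 10 members passed the first criterion, as did 94.1% of all genes tested. The adjusted p was 6.3e-206 for Nqo1, 2.87e-65 for Slc40a1 and 0 to machine precision for the other 8. With the range criterion 4 of 10 members were variable (Hmox1, Fth1, Gclc and Gclm), against 28.0% of all genes tested. At a limit of 1.5-fold all 10 were, against 56.7% of all genes tested. The median range was 0.98 on the log2 scale for the members and 0.69 for all genes tested. The cell type labels could be checked only in part: Vim, a mesenchymal filament gene, was at 3496 to 5848 CPM and the keratin gene Krt8 at 146 to 662 CPM. Of the other epithelial genes of the list, Krt18 was at 38 to 156 CPM and Cdh1 (E-cadherin) at 5.46 to 13 CPM, while Epcam stayed at or below 0.219 CPM. Among markers of leukocytes, endothelium and red cells, Ncr1, Klrk1, Gzma, Cdh5, Hba-a1 and Hbb-bs had 0 counts in every library. Of the markers reported here, those above 1 CPM in any library were Cd68 and Cd14, and Ptprc (CD45) reached 0.109 CPM. The summed level of the list ran from 6.46 CPM in library 8 to 15.9 CPM in library 1.

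**Figure D1:**
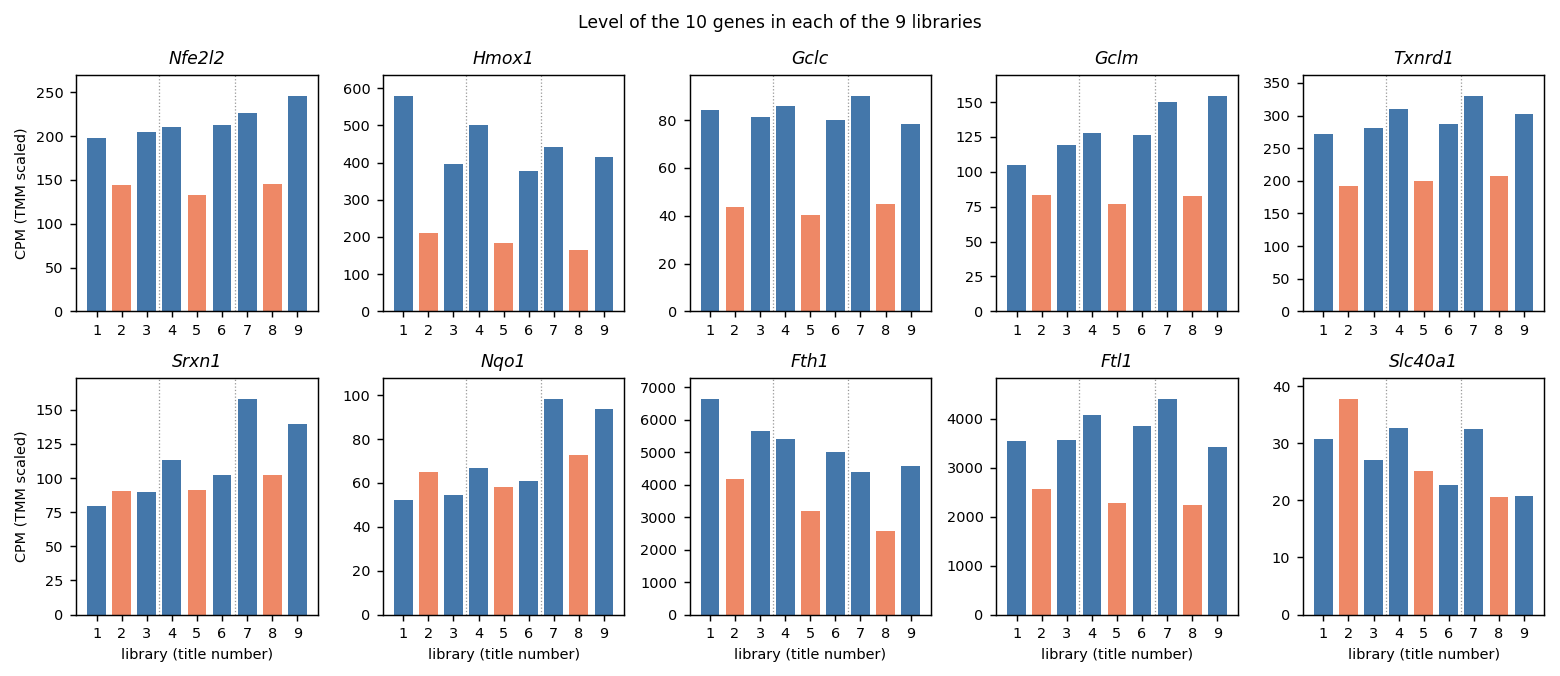
Bars give the level of each of the 10 genes (CPM, TMM scaled, axis from 0) in each library by title number, with dotted lines between runs of 3 and the middle library of each run in orange. The orange bars are the 3 lowest for Nfe2l2, Hmox1, Gclc, Gclm, Txnrd1, Fth1 and Ftl1, but not for Srxn1, Nqo1 or Slc40a1.

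Nfe2l2, the gene of NRF2 itself, stood at 198, 144 and 204 CPM in libraries 1 to 3, at 210.2, 133 and 212 CPM in libraries 4 to 6 and at 226, 145 and 246 CPM in libraries 7 to 9. Libraries 2, 5 and 8 were the 3 lowest, and their highest value lay below the lowest of the other 6. The highest and lowest libraries differed 1.85-fold (95% counting interval 1.77 to 1.93), and libraries 2 and 8 could not be told apart by counting error. In bulk libraries a smaller share of expressing cells and less RNA per cell cannot be told apart, for Nfe2l2 or any other gene. Per kb of principal transcript the median of Nfe2l2 was 82.6 CPM.

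Hmox1, the inducible haem oxygenase, had the widest range of the 10. It stood at 579, 212 and 396 CPM in libraries 1 to 3, at 501, 184 and 378 CPM in libraries 4 to 6 and at 443, 165 and 414 CPM in libraries 7 to 9. Libraries 8, 5 and 2 were again lowest, library 1 was highest, and every pair of neighbours in the order of levels differed by more than counting error. The highest library exceeded the lowest 3.51-fold (95% counting interval 3.41 to 3.61), and 92.2% of all tested genes had a smaller range. Within each run the third library lay below the first, by values of -0.55, -0.41 and -0.10 on the log2 scale. Hmox2, the constitutive haem oxygenase, ranged only from 44.8 to 55.2 CPM, 1.23-fold (95% counting interval 1.13 to 1.34).

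Gclc and Gclm encode the catalytic and the modifier subunit of glutamate-cysteine ligase, the rate-limiting enzyme of glutathione synthesis. Gclc stood at 84.1, 43.5 and 81.5 CPM in libraries 1 to 3, at 85.8, 40.1 and 80.1 CPM in libraries 4 to 6 and at 90.1, 45 and 78.4 CPM in libraries 7 to 9. Its values formed 2 narrow bands, libraries 2, 5 and 8 at 40.1 to 45 CPM and the other 6 at 78.4 to 90.1 CPM, and within the upper band no neighbours in the order differed beyond counting error. The whole range was 2.24-fold (95% counting interval 2.1 to 2.4). Gclm stood at 105, 83.4 and 119 CPM in libraries 1 to 3, at 128, 76.8 and 126 CPM in libraries 4 to 6 and at 150.1, 82.5 and 154 CPM in libraries 7 to 9. The same 3 libraries were lowest, and libraries 7 and 9 were highest and within counting error of each other. Its range of 2.01-fold (95% counting interval 1.9 to 2.12) lay just past the 2-fold limit, which it missed in 9 of 14 alternative settings. Srxn1 lay just outside the limit, with a range of 1.98-fold.

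Txnrd1 encodes the cytosolic reductase of thioredoxin, and Srxn1 the enzyme that repairs overoxidised peroxiredoxins. Txnrd1 stood at 271, 192 and 280.4 CPM in libraries 1 to 3, at 311, 199.6 and 286 CPM in libraries 4 to 6 and at 329.9, 208 and 302 CPM in libraries 7 to 9. Libraries 2, 5 and 8 were lowest once more, with a range of 1.72-fold (95% counting interval 1.67 to 1.77). Srxn1 stood at 79.6, 90.7 and 89.7 CPM in libraries 1 to 3, at 113, 91.2 and 102 CPM in libraries 4 to 6 and at 158, 102 and 139.7 CPM in libraries 7 to 9. Library 2 was not low within its run, libraries 7 and 9 were highest, and all of libraries 1 to 3 lay below the other 6. That last order held in 2.72% of all genes tested, but for Srxn1 it rests on libraries 2 and 5, which were within counting error of each other. The range was 1.98-fold (95% counting interval 1.89 to 2.08).

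Nqo1, a quinone reductase widely used as a readout of NRF2, had a profile closer to Srxn1 than to Hmox1 (root mean square difference 0.10 and 0.75 in log2 CPM). Its levels stood at 52.3, 64.8 and 54.4 CPM in libraries 1 to 3, at 66.6, 58 and 61.1 CPM in libraries 4 to 6 and at 98.1, 72.7 and 93.5 CPM in libraries 7 to 9. Libraries 7 to 9 all lay above the other 6, an order that held in 3.29% of all genes tested, and library 1 was lowest. In the first run library 2 was the highest of the 3, in the other runs the middle library was the lowest, and 6 of 8 neighbouring pairs in the order of levels were within counting error. The range was 1.88-fold (95% counting interval 1.77 to 1.99).

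The ferritin genes were the most abundant members. Fth1, the heavy chain that oxidises iron on entry, stood at 6623, 4164 and 5652 CPM in libraries 1 to 3, at 5397, 3197 and 5010.1 CPM in libraries 4 to 6 and at 4399.9, 2581 and 4582 CPM in libraries 7 to 9. By counts it lay between rank 3 and rank 21 of all genes. Libraries 8, 5 and 2 were lowest and library 1 was highest, 2.57-fold (95% counting interval 2.55 to 2.59). Ftl1, the light chain that helps iron mineralise in the shell, stood at 3551, 2566 and 3575 CPM in libraries 1 to 3, at 4089, 2282 and 3863 CPM in libraries 4 to 6 and at 4402, 2235 and 3435 CPM in libraries 7 to 9. It had the same 3 libraries lowest, but library 7 highest, and a range of 1.97-fold (95% counting interval 1.95 to 1.99). Per kb of principal transcript the medians were 3067 CPM for Fth1 and 3668 CPM for Ftl1, against 252 CPM for Hmox1 and 8.03 CPM for Slc40a1, the lowest of the 10. Both ferritin genes have near-identical pseudogenes. Ftl1-ps1 was assigned 37.5 to 70.5 CPM, 0.709% of the counts of all ferritin rows, and the division of reads between the copies is uncertain. Together the 10 genes held 0.587% (library 8) to 1.14% (library 1) of a library's counts.

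Slc40a1 encodes ferroportin, the iron exporter. It stood at 30.8, 37.7 and 27.1 CPM in libraries 1 to 3, at 32.7, 25.1 and 22.7 CPM in libraries 4 to 6 and at 32.5, 20.6 and 20.8 CPM in libraries 7 to 9. Library 2 was highest and libraries 8, 9 and 6 were lowest, so that the middle library was the highest of the first run and neither highest nor lowest of the second. The range was 1.84-fold (95% counting interval 1.68 to 2.01), and 6 of 8 neighbouring pairs were within counting error.

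The paired subunits did not keep a fixed ratio. Per kb of principal transcript, the ratio of Fth1 to Ftl1 levels stood at 1.21, 1.05 and 1.02 in libraries 1 to 3, at 0.855, 0.908 and 0.84 in libraries 4 to 6 and at 0.648, 0.748 and 0.864 in libraries 7 to 9. All 3 ratios of libraries 1 to 3 lay above those of the other 6, and the highest was 1.87 times the lowest. With the length of all annotated exons in place of the principal transcript, the same ratios ran from 0.386 to 0.721, so in libraries 1 to 3 the more abundant chain depends on the length used. In the other 6 the ratio was below 1 with both lengths, and the order of libraries is the same with both. The principal transcript used is the longest one, and another Fth1 promoter window, at chr19:9982396-9982695, lies inside the gene. A shorter Fth1 length would raise every ratio, so the more abundant chain is not settled in any library. The ratio of Gclc to Gclm levels, per kb likewise, stood at 1.31, 0.852 and 1.12 in libraries 1 to 3, at 1.1, 0.852 and 1.03 in libraries 4 to 6 and at 0.98, 0.891 and 0.83 in libraries 7 to 9. It was lowest in libraries 9, 2 and 5 and highest in library 1, 1.57 times the lowest.

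**Figure D2:**
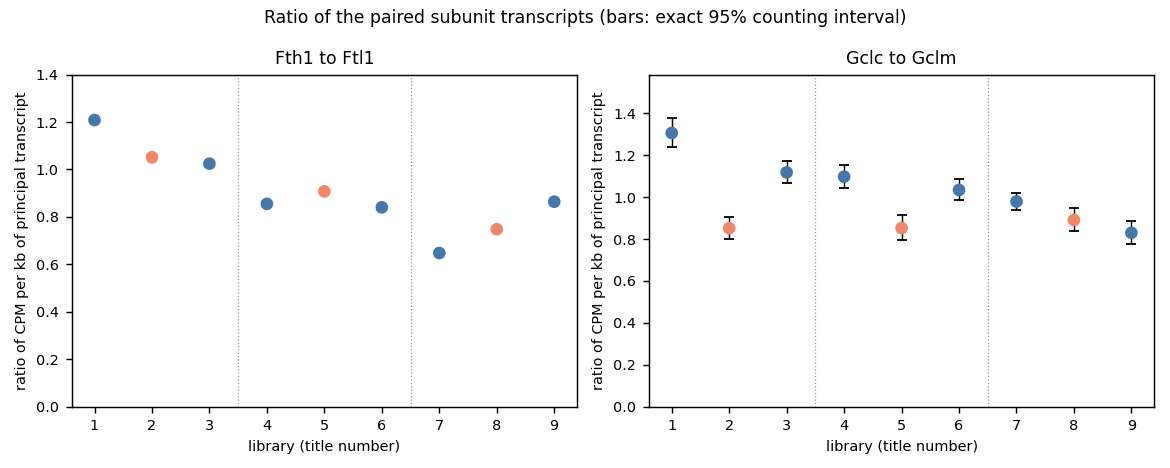
Points give the ratio of Fth1 to Ftl1 (left) and of Gclc to Gclm (right), as CPM per kb of principal transcript, in each library by title number, with exact 95% counting intervals as bars and the middle library of each run in orange. With this length the ferritin ratio is above 1 in libraries 1 to 3 and below 1 in the other 6, and the ligase ratio is highest in library 1. The side of 1 depends on the transcript length used.

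By position within the runs, 7 of 10 members (Nfe2l2, Hmox1, Gclc, Gclm, Txnrd1, Fth1 and Ftl1) were lowest in the middle library of all 3 runs, against 29.5% of all genes tested. In the same 7, libraries 2, 5 and 8 all lay below the other 6, against 20.1% of all genes tested. None of the 10 was highest in the middle library of all 3 runs (28.6% of all genes tested), and none had libraries 2, 5 and 8 all above the other 6 (19.0%). By run, none had libraries 7 to 9 all below the other 6 (4.08%), libraries 1 to 3 all above (3.89%), or libraries 4 to 6 all above (0.0390%) or all below (0.0312%). The middle library differed from the mean of its 2 neighbours, on the log2 scale, by -1.18, -1.24 and -1.38 for Hmox1 and by -0.93, -1.05 and -0.90 for Gclc. For the 7 genes this difference lay between -1.38 and -0.42 in every run. For the other 3 it changed sign between runs, being 0.28, -0.14 and -0.40 for Nqo1, 0.10, -0.24 and -0.54 for Srxn1, and 0.39, -0.12 and -0.34 for Slc40a1.

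**Figure D3:**
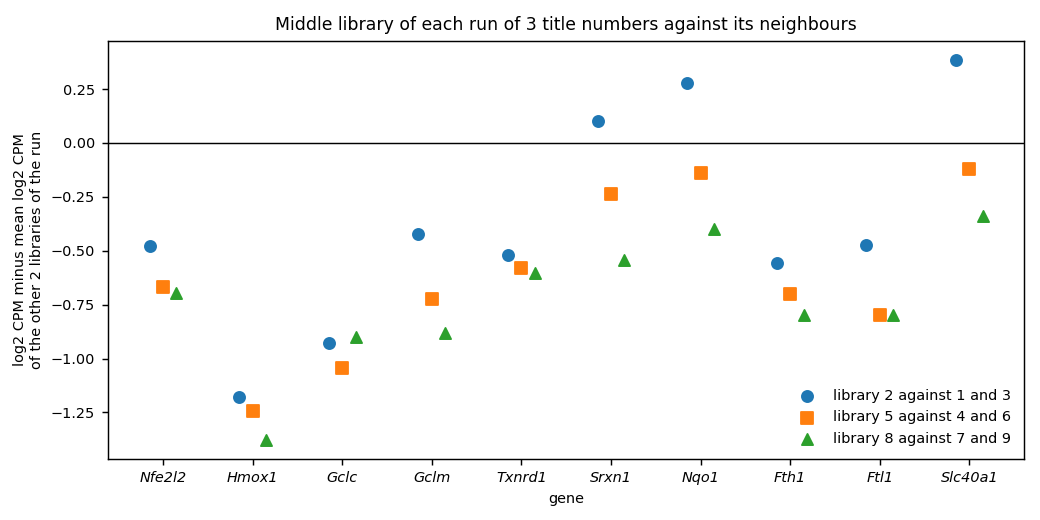
Points give, for each gene, the log2 CPM of the middle library of a run minus the mean log2 CPM of the other 2 libraries of that run (circle, run 1 to 3; square, run 4 to 6; triangle, run 7 to 9). All 3 points are below 0 for 7 genes, and for Srxn1, Nqo1 and Slc40a1 the circle is above 0 and the other points below it.

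Other measures moved with that order. Mki67, which encodes the Ki-67 antigen of cycling cells, was highest where the 7 genes were lowest, at 5.64, 62.9 and 4.98 CPM in libraries 1 to 3, at 9.8, 106 and 9.2 CPM in libraries 4 to 6 and at 28.1, 149 and 24.1 CPM in libraries 7 to 9. The summed level of the proliferation markers Mki67, Top2a and Ccnb1 was 138, 217 and 303 CPM in libraries 2, 5 and 8 and 17 to 74 CPM in the other 6. The macrophage-associated gene Cd68, from the leukocyte list, was lowest in the same 3 libraries, at 2.74 to 4.6 CPM against 6.4 to 11 CPM. Cd14, the other gene of that list that was tested, did not follow this order and stood at 7.21, 5.91 and 7.24 CPM in libraries 1 to 3, at 3.6, 3.98 and 3.93 CPM in libraries 4 to 6 and at 2.13, 3.07 and 2.95 CPM in libraries 7 to 9. The share of counts from mitochondrially encoded genes was 1.45%, 1.64% and 1.37% in libraries 2, 5 and 8, inside the range of 1.31% to 2.05% of the other 6, and the totals of the 3 libraries lay inside those of the other 6 as well. The TMM factors did separate them, at 1.03, 1.035 and 1.037 against 0.9753 to 0.9981 in the other 6. With library totals alone, the count of members lowest in every middle library was also 7. Of the identity markers of the line, Vim and Krt8 were above all other libraries in libraries 2, 5 and 8, at 5739.7 to 5848 CPM against 3496 to 4703 CPM for Vim and at 307 to 662 CPM against 146 to 284 CPM for Krt8. Krt18 and Cdh1 did not separate these libraries from the rest, with 91.3, 88 and 106 CPM of Krt18 in libraries 2, 5 and 8 against 38 to 156 CPM in the other 6. Cdh1 was highest in the middle library of every run, but library 7 (11.6 CPM) lay above libraries 2 and 5 (11.1 and 10.5 CPM). The summed level of all 5 markers, most of it Vim, was 6153, 6358 and 6521 CPM in libraries 2, 5 and 8 and 3871 to 4931 CPM in the other 6. The part of proliferation, Cd68, Vim, Krt8 and Cdh1 in the result was not tested.

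**Figure D4:**
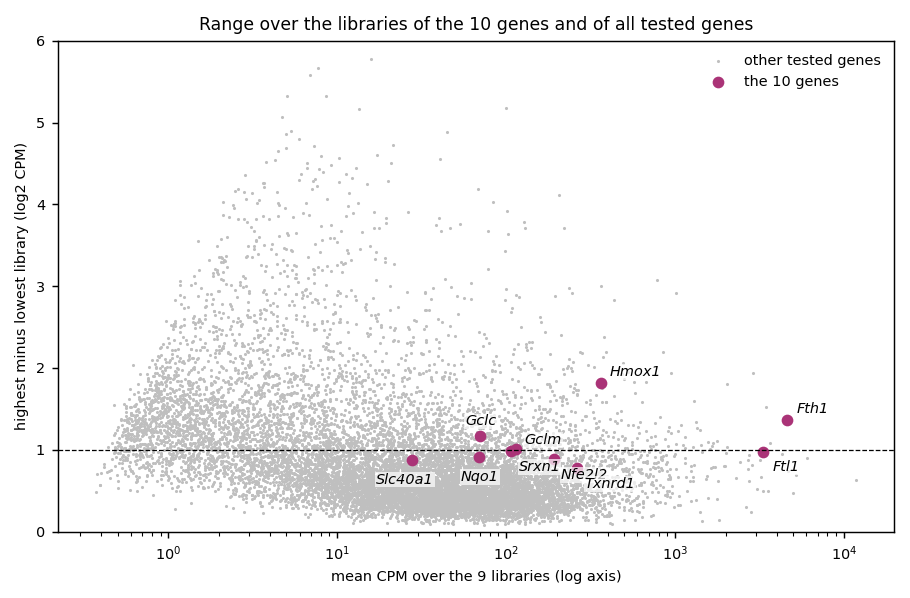
Each point is a tested gene, with its mean CPM over the 9 libraries (log axis) against its range (highest minus lowest library, log2 CPM). The 10 genes are in purple and the dashed line marks 2-fold. Hmox1 and Fth1 lie highest among the 10, and Gclm and Srxn1 lie on either side of the line.

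Genes were also ranked by how closely their levels, centred on their own median, followed a member over the 9 libraries (root mean square difference of log2 CPM, among 9884 other genes with a mean of at least 5 CPM). For Hmox1 the 3 closest were Ern1, which encodes the endoplasmic reticulum stress sensor IRE1-alpha (0.10), Slc3a2, the shared heavy chain of amino acid transporters (0.14), and Gpt2, a mitochondrial alanine aminotransferase (0.15). The median over all candidates was 0.68. Ern1 stood at 129, 52.9 and 103 CPM in libraries 1 to 3, at 110.0, 47.1 and 94.3 CPM in libraries 4 to 6 and at 95.9, 38.7 and 92.7 CPM in libraries 7 to 9. Among the members, Gclc came closest to Hmox1, at rank 45, while Nfe2l2 was at rank 439 and Nqo1 at rank 6740. The difference is not scaled for range, so a gene can rank far from Hmox1 with the same libraries lowest. Nfe2l2 is such a gene, with a log2 range of 0.89 against 1.81 for Hmox1. For Nqo1 the closest gene of all was Srxn1 (0.10), followed by Hus1, a subunit of a DNA damage checkpoint clamp (0.12), and Prdx6, a peroxiredoxin (0.12), with a median of 0.36 over all candidates.

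The wider pathway was described with 7 further lists of 142 genes, of which 126 were tested and 39 were variable (31%, against 28.0% of all genes tested). Of the 126, 49 were lowest in the middle library of every run and 28 highest (29.5% and 28.6% of all genes tested, respectively). By list, the lowest and highest counts were 6 and 3 of 13 for NRF2 regulators, 10 and 5 of 23 for glutathione, 7 and 7 of 19 for thioredoxin and antioxidant enzymes, 2 and 4 of 9 for NADPH supply, 5 and 2 of 17 for other detoxification, 6 and 6 of 21 for haem and 13 and 1 of 24 for iron. Among regulators and partners of NRF2, 3 of 13 were variable, with a median range of 0.59 on the log2 scale. Keap1, the inhibitor of NRF2, stood at 103, 133 and 103 CPM in libraries 1 to 3, at 95, 126 and 96.7 CPM in libraries 4 to 6 and at 89, 114 and 76 CPM in libraries 7 to 9. Its 3 highest values were those of libraries 2, 5 and 8, the reverse of Nfe2l2. Bach1, the haem-sensing repressor, differed only 1.25-fold (95% counting interval 1.18 to 1.33), from 58.2 to 72.9 CPM. Sqstm1, the autophagy receptor p62, which can draw KEAP1 away from NRF2, was variable and ran from 839.6 CPM in library 5 to 1985 CPM in library 7, with libraries 2, 5 and 8 lowest. The relative of NRF2 encoded by Nfe2l3 had the widest range of this list, 3.65-fold (95% counting interval 2.88 to 4.67), with libraries 2, 5 and 8 highest.

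In glutathione supply and use 11 of 23 genes were variable (47.8%, against 28.0% of all genes tested), with a median range of 0.99 against 0.69. Slc7a11, the cystine transporter that supplies cysteine for glutathione, stood at 632, 100.2 and 506 CPM in libraries 1 to 3, at 497, 79.1 and 433 CPM in libraries 4 to 6 and at 449, 86.9 and 520.2 CPM in libraries 7 to 9, a range of 7.99-fold (95% counting interval 7.65 to 8.35). Its partner Slc3a2 was lowest in the same 3 libraries, at 229.5 to 237 CPM against 491 to 628 CPM. Gsta1, a glutathione S-transferase with close paralogs and therefore uncertain counts, had the widest range of any tested gene of the 7 lists, 19.5-fold (95% counting interval 15.5 to 24.8). It stood at 3.55, 2.27 and 2.77 CPM in libraries 1 to 3, at 12, 5.02 and 12 CPM in libraries 4 to 6 and at 37.2, 15.8 and 44.3 CPM in libraries 7 to 9. In it, libraries 7 to 9 all lay above and libraries 1 to 3 all below the rest. Of the thioredoxin, peroxiredoxin and antioxidant enzyme genes 6 of 19 were variable (31.6%, against 28.0%), with a median range of 0.75 against 0.69. Sod3, an extracellular superoxide dismutase, ranged from 1.75 CPM in library 9 to 21.8 CPM in library 2, and Sesn3, a sestrin, from 34.9 CPM in library 7 to 90.0 CPM in library 5. Prdx1, the most abundant of them, a peroxiredoxin and substrate of Srxn1, ran from 318 to 604 CPM and was lowest in libraries 5, 8 and 2.

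In NADPH supply, where the median range was 0.69 as over all genes tested, 2 of 9 genes were variable (22.2%, against 28.0%). They were Mthfd2, a mitochondrial folate enzyme, at 36.1 CPM in library 2 and 176 CPM in library 7, and Idh1, a cytosolic isocitrate dehydrogenase, whose range of 2.00-fold sits on the 2-fold limit. Tkt, a transketolase, ran only from 368 to 493 CPM. Among other detoxification genes 6 of 17 were variable (35.3%, against 28.0% of all genes tested), with a median range of 0.71 against 0.69. Ptgr1, a reductase of reactive aldehydes and ketones, was at 16.9 CPM in library 1 and 45.3 CPM in library 9. Esd, an esterase, ran from 183 CPM in library 2 to 434 CPM in library 9, and Akr1a1, an aldehyde reductase, from 296 to 373 CPM.

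Of the haem genes 3 of 21 were variable (14.3%, against 28.0% of all genes tested), with a median range of 0.53 against 0.69. The variable ones were Cpox, an enzyme of haem synthesis, at 36.9 CPM in library 2 and 92.3 CPM in library 7, and the transporter genes Flvcr1, the haem exporter, and Flvcr2, the latter only at 0.511 to 2.2 CPM. Slc48a1, a haem transporter of the lysosome membrane, ran from 294 CPM in library 8 to 518 CPM in library 7. Of the iron genes 8 of 24 were variable (33.3%, against 28.0%), with a median range of 0.65 against 0.69. Tfrc, the transferrin receptor that brings iron in, stood at 104, 55.4 and 89.6 CPM in libraries 1 to 3, at 134, 82.5 and 111 CPM in libraries 4 to 6 and at 173, 121 and 154 CPM in libraries 7 to 9, 3.12-fold (95% counting interval 2.97 to 3.28) from lowest to highest. Within each run its middle library was lowest, as for Fth1, but its highest value was in library 7, where Fth1 stood below its median over the libraries. Steap1, of the metalloreductase family, ranged 5.3-fold (95% counting interval 4.83 to 5.83), and Lcn2, a siderophore-binding secreted protein gene, 4.95-fold (95% counting interval 4.64 to 5.29), from 31.1 CPM in library 8 to 154 CPM in library 1. Pcbp2, an iron chaperone and RNA-binding protein, ran from 304 to 470.0 CPM.

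**Figure D5:**
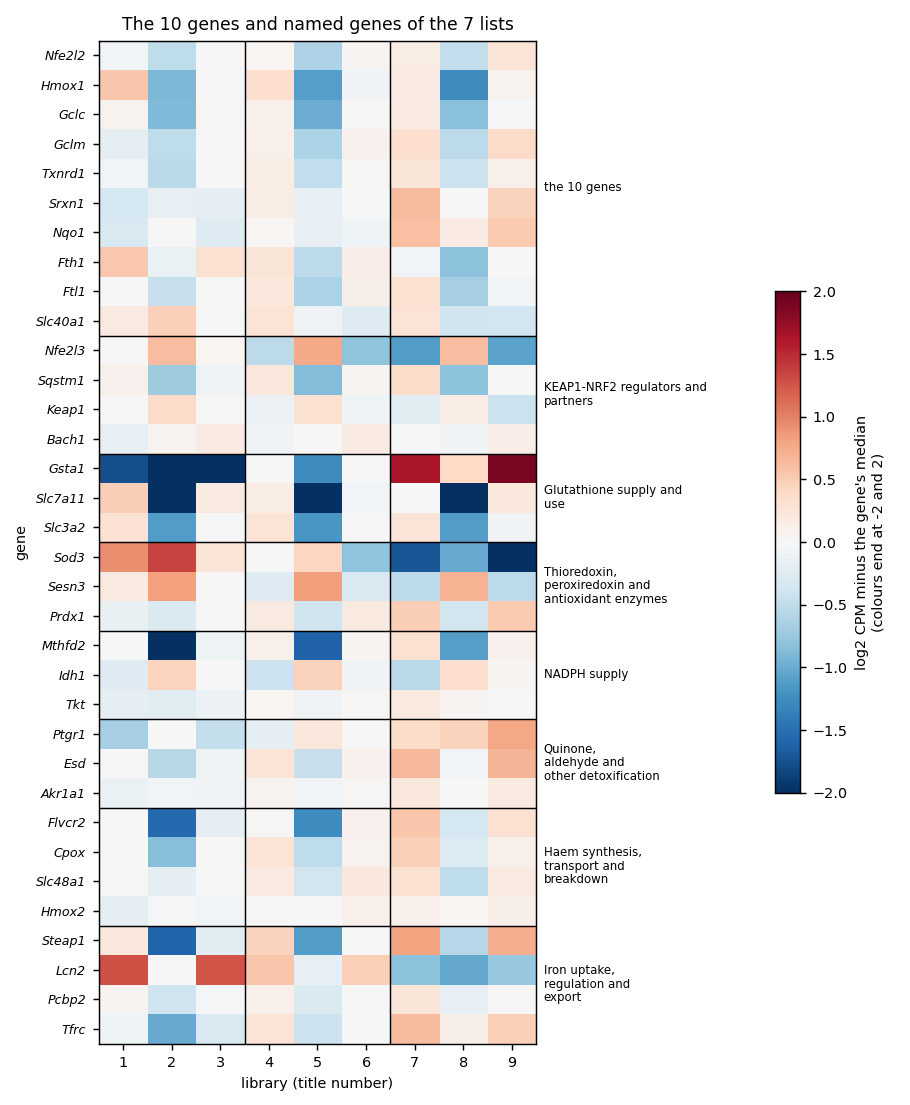
Rows are the 10 genes and the named genes of the 7 lists, columns the libraries by title number, and colours show log2 CPM relative to each gene's median, with the scale ending at -2 and 2. Libraries 2, 5 and 8 are blue in most of the upper rows, in Sqstm1, Slc7a11, Slc3a2 and Steap1, and red in Keap1, Nfe2l3 and Sesn3.

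On GRCm38 with GENCODE M21, all 10 members are protein-coding genes, and each value covers the whole transcript set of its gene. Nfe2l2 (ENSMUSG00000015839) lies on chromosome 2 from 75675513 to 75704641 on the minus strand. Hmox1 (ENSMUSG00000005413) is on chromosome 8 from 75093621 to 75100589 on the plus strand. Nqo1 (ENSMUSG00000003849) is on chromosome 8 from 107388225 to 107403206 on the minus strand. Gclm (ENSMUSG00000028124) is on chromosome 3 from 122245557 to 122270732 on the plus strand. Gclc (ENSMUSG00000032350) is on chromosome 9 from 77754535 to 77794485 on the plus strand. Txnrd1 (ENSMUSG00000020250) is on chromosome 10 from 82833951 to 82897712 on the plus strand. Srxn1 (ENSMUSG00000032802) is on chromosome 2 from 152105516 to 152111376 on the plus strand. Fth1 (ENSMUSG00000024661) is on chromosome 19 from 9980598 to 9985098 on the plus strand. Ftl1 (ENSMUSG00000050708) is on chromosome 7 from 45457944 to 45459884 on the minus strand. Slc40a1 (ENSMUSG00000025993) is on chromosome 1 from 45908068 to 45926523 on the minus strand.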

How the data were processed

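Poly(A) RNA of 9 D2.0R libraries was measured. The authors deposited 1 table of expected counts per gene, estimated with RSEM and rounded to whole numbers, and not normalised. Per the submitters' processing notes, the tools included STAR 2.7.8a, RSEM 1.3.3, cutadapt 2.3 and FastQC 0.11.8, on GRCm38. The sources used here give neither annotation release nor strand setting. No library has a group, so none is averaged with another and no quasi-likelihood test could be run. The sources used here do not say which libraries, if any, are separate cultures.

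Counts were scaled with TMM in edgeR 4.0.16 (R 4.3.3). Genes had to pass the edgeR filter without groups (the level of 10 counts at the median library size in every library, 15 counts in total). A gene under that level in any library was left out, as Steap4 of the iron list was (0.247 to 2.07 CPM). Ranges were taken on log2 CPM with a prior count of 2. The chi-square test of dispersion was tested on simulated data with counting noise only and some genes raised in a single library each. That simulation holds no variation between cultures and no uncertainty of read assignment. Ratio intervals are exact conditional binomial 95% intervals (scipy 1.17.1) and cover counting error only. PCR duplicates cannot be recognised. RSEM divides reads that fit several genes by likelihood, which affects ferritin and Gsta1. Principal transcripts are the longest APPRIS principal ones.

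Named are all members, the 2 genes of widest range and the 1 of highest mean in each list, Keap1, Bach1, Slc7a11, Tfrc, Hmox2 and Sqstm1, and the 3 closest profiles to Hmox1 and to Nqo1. Others (Flvcr1, Cd68, Vim, Krt8, Epcam and genes of the closing section) are checks or were chosen after their values were seen. Of the marker lists, 1 gene is not reported here. The members, lists and tests were chosen with earlier results of these data known. Alternatives covered scaling, filter, prior count, the 2-fold limit and leaving out each library.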

Additional observations from a re-analysis of the deposited data

How the results depend on the processing

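All 10 members stayed past the adjusted p in every alternative. The number of variable members was 4 and ran from 3 to 4 when single libraries were left out, and it was 10 with a limit of 1.5-fold in place of 2-fold. That limit also gave 7 variable genes among NRF2 regulators, 19 in glutathione, 13 in thioredoxin and antioxidant enzymes, 6 in NADPH supply, 10 in haem, 13 in iron and 7269 of all genes (56.7%). The higher counts follow from the lower limit. Without a filter on low counts 6412 of all genes were variable, since more low genes enter, and 1 gene of NADPH supply. When single libraries were left out, all-gene counts ran from 3267 to 3563, NADPH supply from 1 to 2 (1 without library 4, 5, 7 or 9) and haem from 1 to 3 (1 without library 2). The cause was not tested. Across scaling, filter, prior and leave-one-out settings the log2 range of Hmox1 ran from 1.60 to 1.81, of Fth1 from 1.05 to 1.36 and of Gclc from 1.05 to 1.18, all past the limit. Gclm, past it in the report's setting, missed it with RLE factors (0.99), with totals alone (0.92), without a filter (0.98), with a minimum mean of 1 CPM (0.98) and without library 2, 5, 6, 7 or 9. Srxn1 passed it with RLE factors (1.00), without a filter (1.03), with a minimum mean of 1 CPM (1.01) and without library 2 or 6. Over 14 settings the count of members lowest in every middle library was 9 without library 2 and 7 otherwise, and of those highest 0. Without library 2, 5 or 8 the run that lost its middle library drops out and only 2 runs are compared, a looser criterion. No paired analysis was possible because the labels give no library a group. No member rests on few counts (lowest 381), but in Nqo1, Gclc and Slc40a1 6 of 8 neighbouring pairs were within counting error. Genes of the lists under about 1 CPM rest on few counts.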

Other observations

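Some genes of the wider lists, chosen after their values were seen, ordered the runs, and some of these also ordered the positions within them. Cp, the copper oxidase ceruloplasmin that works with ferroportin, stood at 445, 223 and 370.5 CPM in libraries 1 to 3, at 287, 167 and 214 CPM in libraries 4 to 6 and at 148, 109.7 and 131 CPM in libraries 7 to 9. All of libraries 7 to 9 lay below the other 6, as they did for Lcn2, Sod3, Mgst2 and Iscu, 5 of 126 listed genes against 4.08% of all genes tested. Of these genes, Cp and Lcn2 were also lowest, and Sod3 highest, in the middle library of every run, while Mgst2 and Iscu were neither. Gstt1, a glutathione transferase, stood at 106, 93.2 and 91 CPM in libraries 1 to 3, at 73.5, 85.6 and 60.2 CPM in libraries 4 to 6 and at 41.9, 72.1 and 36.3 CPM in libraries 7 to 9, with libraries 1 to 3 all above the other 6, as in 4 of 126 listed genes and 3.89% of all genes tested. Both shares are near the background, so these are single genes and not a result about the lists. G6pdx, the first enzyme of the pentose phosphate pathway, stood at 201, 221 and 236 CPM in libraries 1 to 3, at 236, 249 and 264 CPM in libraries 4 to 6 and at 272, 273 and 288 CPM in libraries 7 to 9, with libraries 3 and 4 level to 3 digits. Across all listed genes, 9 of 126 had libraries 7 to 9 above the rest, against 3.29% of all genes tested, and 10 of 126 had libraries 1 to 3 below the rest, against 2.72%.

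The 9 values of some members left a wide gap. In Gclc the widest gap on the log2 scale, between 45 and 78.4 CPM, took up 68.7% of the whole range, with 3 libraries below it (2, 5 and 8, at 43.5, 40.1 and 45 CPM) and 6 above. In Hmox1 the widest gap, between 212 and 378 CPM, took up 46.2% and separated the same libraries. In Nqo1 and Srxn1 the widest gap lay elsewhere, with 2 libraries (7 and 9) above it. In Fth1 it lay between 3197 and 4164 CPM, with only libraries 8 and 5 below it and library 2 above. In Slc40a1 library 2 alone lay above it.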
